A study of Glycine max with 4 samples.

Results

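Chromatin immunoprecipitation sequencing (ChIP-Seq) of soybean embryos gave many places on the chromosomes where regions occupied by GmWRI1 lay close together. These places, called runs here, were chosen by position alone. Peaks of the 2 ChIP replicates that shared at least 1 bp were merged, and a merged region was kept as shared when it held a peak of each replicate on chromosomes 1 to 20. A run was a series of at least 3 successive shared regions in which every gap, from the end of a region to the start of the next, was under 5000 bp, and in which every region was under 2000 bp wide. Of 15102 shared regions on the chromosomes, 1650 (10.9%) lay in 495 such runs. The remainder comprised 9299 solitary regions with no shared neighbour within 5000 bp, 3872 regions in 1936 pairs, and 281 regions in 84 runs set aside because they held a wider region.

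WRINKLED1 (WRI1) is a plant transcription factor of the AP2 family. In Arabidopsis and other plants it is known for activating genes of late glycolysis, plastid pyruvate metabolism and fatty acid synthesis during seed filling, and so for directing carbon from sugars into oil. A ChIP-Seq peak marks a stretch of chromatin that the antibody enriched over its surroundings, and closely spaced peaks may lie within a single gene or span several genes. Whether a given peak regulates a gene is not measured by ChIP-Seq.

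Embryos came from Williams 82 plants and were taken at early maturation (the em stage), when storage lipid and protein begin to accumulate. Chromatin was immunoprecipitated with a rabbit antibody raised against a peptide, which recognises both soybean proteins, GmWRI1-A and GmWRI1-B, so occupancy by either cannot be told apart. There were 2 biological ChIP replicates and 2 input chromatin samples from the same stage and cultivar, with no genotype or treatment contrast, and whole embryos were used, so that the cell type in which a region was occupied is not known. The deposited lists held 22982 peaks in replicate 1 and 20027 in replicate 2, with a median of 37 and 26 reads at the summit (ranges 20 to 420 and 14 to 388).

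Strength is given as fold enrichment, the ratio of ChIP reads at a summit to the local background, taken for the strongest peak of each replicate in a region. Values are stated per replicate or as the mean ± SD of the 2 replicates. Because the positions of the same peaks chose the runs, all values are descriptions and no test was made. Genome positions are given on Wm82.a2.v1, the build of the study's gene tables, which was assumed to be that of the peak lists. Whether a region is exonic, intronic or intergenic was not analysed here. A gene is named only where a site that the study lists for that gene lay in the region, which by the study's definition is in the gene body or a short distance upstream of its start.

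Most runs were short. Of the 495 runs, 375 held 3 regions, 83 held 4, 29 held 5 and 8 held 6. A run spanned a median of 5783 bp (1282 to 19210 bp), and its regions covered a median of 38.9% of that span. Together the runs spanned 3129.5 kb and their regions 1161.2 kb.

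Spacing within runs was skewed toward short gaps. The 1155 gaps had a median of 1176 bp, with an interquartile range from 361 to 2878 bp. Of these, 354 (30.6%) were under 500 bp, including 95 under 100 bp, while 378 (32.7%) were from 500 to 2000 bp and 423 (36.6%) from 2000 to 5000 bp. In 35 runs every gap was under 500 bp, and in 221 runs none was. Summits of successive regions were a median of 1966 bp apart. A peak seen in a single replicate lay in 165 gaps (14.3%), and 151 runs (30.5%) held at least 1 such peak. In total the runs held 113 such peaks of replicate 1 and 66 of replicate 2.

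**Figure D1:**
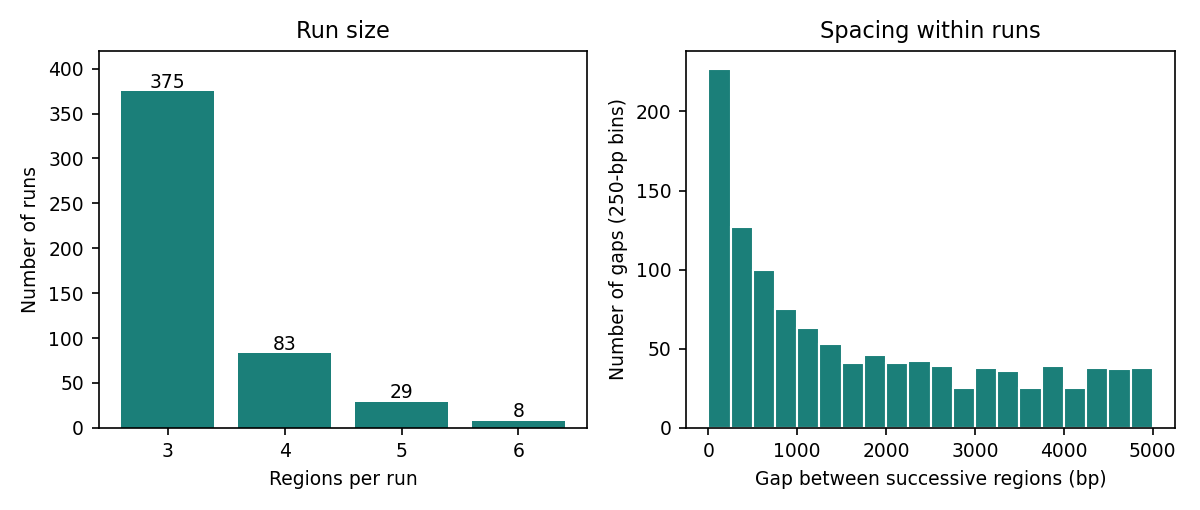
Left, number of runs by the number of regions they hold. Right, number of gaps between successive regions of a run, in bins of equal width; gaps under 500 bp make up 30.6% of the 1155 gaps and the rest extend to the limit of 5000 bp.

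Regions in runs were somewhat weaker than solitary regions in both replicates. The median fold enrichment of run regions was 4.44 in replicate 1 and 4.94 in replicate 2. Solitary regions had medians of 4.94 and 5.43, so that the ratio of run to solitary medians was 0.898 in replicate 1 and 0.908 in replicate 2. On the mean of both replicates the medians were 4.66 for run regions, 4.91 for pairs and 5.15 for solitary regions, so pairs lay between the other classes. Solitary regions under 2000 bp wide had a median of 5.06. Median reads at the summit were 42 in runs and 47 in solitary regions in replicate 1, and 27 and 30 in replicate 2. The median local background was 8.51 reads in runs and 8.31 in solitary regions in replicate 1, and 4.43 and 4.44 in replicate 2. The difference in fold enrichment thus went with fewer ChIP reads in both replicates, and in replicate 1 also with a slightly higher background.

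Strong regions were less frequent in runs. A region counted as strong when each replicate placed its fold enrichment in the top 5% of that replicate's peaks, at least 14.8 in replicate 1 and 18.4 in replicate 2. This held for 67 of 1650 run regions (4.06%), against 5.96% of all shared regions and 6.44% of solitary regions. The width limit bears on this share. Among solitary regions under 2000 bp wide 5.74% were strong, and with the set-aside runs added back 101 of 1931 run regions were (5.23%). A −log10 q of at least 10 in both replicates was reached by 762 run regions (46.2%), against 52.9% of all shared regions. At the low end, 494 run regions (29.9%) had a mean fold enrichment under 4, compared with 22.6% of solitary regions. At the high end, 13 run regions (0.788%) reached 40 or more, compared with 1.08% of solitary regions, so that the strongest regions were present in runs as well.

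**Figure D2:**
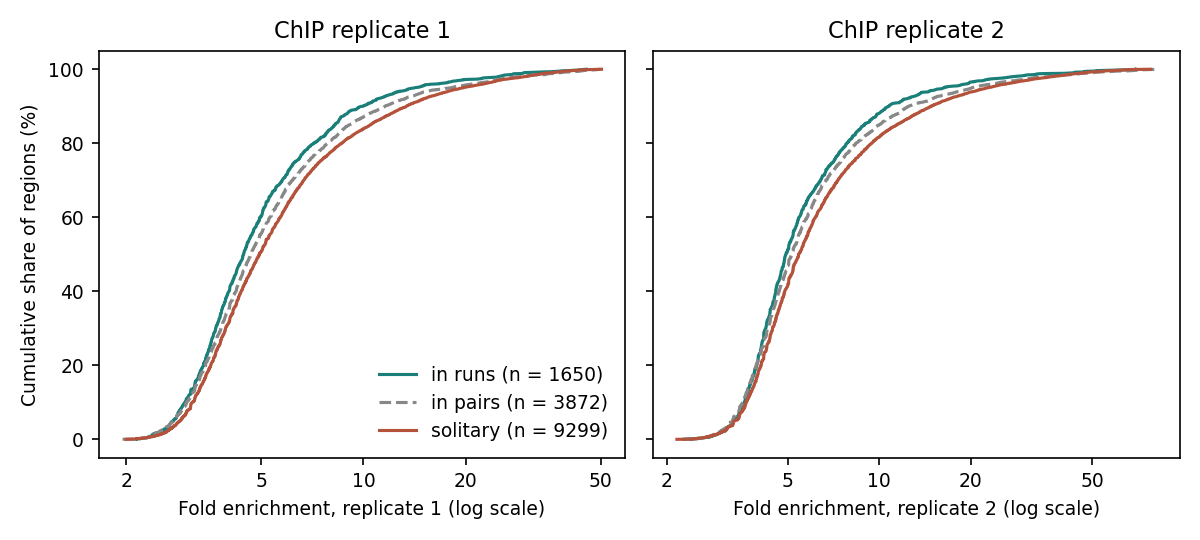
Cumulative share of regions (%) by fold enrichment (log scale) in each ChIP replicate, for regions in runs, in pairs and solitary. The curve for runs lies to the left of that for solitary regions in both replicates, with medians of 4.44 against 4.94 in replicate 1 and 4.94 against 5.43 in replicate 2.

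Run regions were wider than solitary regions, with a median of 595.5 bp against 534 bp. Among regions from 600 to 800 bp wide, the median fold enrichment was 4.92 for 319 run regions and 5.75 for 1523 solitary regions, and 6.27% and 12.7% were strong. Among those from 1200 to 2000 bp wide the medians were closer, 7.01 for 191 run regions and 7.37 for 788 solitary regions, and 11.5% and 12.6% were strong. Replicate summits also lay further apart in run regions, a difference not examined within classes of width or strength. The summits of the 2 replicates were a median of 50 bp apart in run regions and 37 bp in solitary regions, and within 100 bp in 70.9% and 78.4%. Across regions, Spearman's rho between the replicates' fold enrichments was 0.734 for the 1650 run regions and 0.789 for the 9299 solitary regions, which share the same libraries and peak threshold.

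A run usually held regions of unequal strength. The strongest region of a run had a median of 1.92 times the fold enrichment of the weakest (interquartile range 1.44 to 2.72, range 1.03 to 17.2), and the replicates taken alone gave 2.05 and 1.92. The ratio was above 2 in 228 runs, above 5 in 50 runs (10.1%) and above 10 in 15 runs. It was larger in longer runs, with medians of 1.79, 2.22, 2.28 and 2.51 for runs of 3, 4, 5 and 6 regions, a ratio that can only grow as regions are added to a run.

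Most runs with a strong region held only 1, and its neighbours were of ordinary strength for runs. The runs were sorted here by the same fold enrichment that is described. Of all run regions 4.06% were strong, and the median fold enrichment over all run regions was 4.66. The 67 strong regions lay in 60 runs (12.1%), of which 55 held 1, 3 held 2 and 2 held 3. In these 60 runs the strongest region had a median fold enrichment of 26.5 and the other regions a median of 5.00. In the runs without a strong region the medians were 6.82 and 4.20. Of 48 runs whose strongest region exceeded 20, the second strongest was under 10 in 38, although the nearest neighbour was a median of only 1156.5 bp away. In 168 runs (33.9%) every region was under 6, in 16 runs every region exceeded 6, and in 1 run every region exceeded 10.

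**Figure D3:**
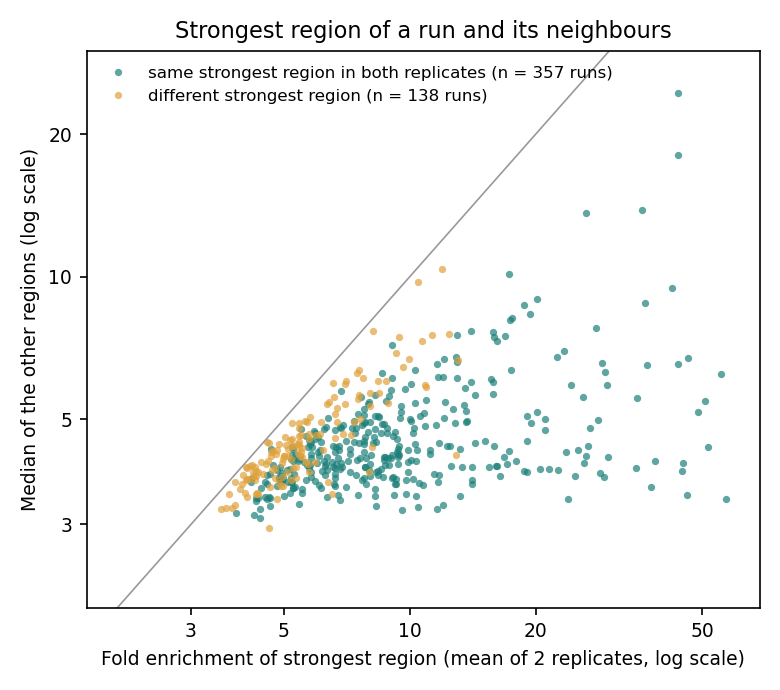
Each point is a run, with the fold enrichment of its strongest region on the horizontal axis and the median of its other regions on the vertical axis (both the mean of 2 replicates, log scales); the grey line marks equality. Colours separate the 357 runs in which both replicates had the same strongest region from the other 138, which lie nearer to the line, and in the 60 runs with a strong region the other regions had a median of 5.00.

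Strength of a region and of its next neighbour was almost unrelated. Over the 1155 successive pairs, Spearman's rho was 0.04 in replicate 1, −0.02 in replicate 2 and 0.01 on the mean. For pairs less than 500 bp apart it was 0.09 and −0.07 in the replicates, and for pairs 2000 to 5000 bp apart −0.02 and 0.02. These pairs share libraries and overlap within runs, and the values are given as a description. Local background was weakly related between neighbours, with rho of 0.10 in replicate 1 and 0.09 in replicate 2.

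The strongest region had no preferred place in the run. Among runs of 3 regions it was the first in 120, the middle in 128 and the last in 127, and the median fold enrichments at these places were 4.68, 4.66 and 4.70. Over all runs it lay at an end in 304 (61.4%), where ends make up 60.0% of the places. Both replicates had the same strongest region in 357 runs (72.1%). In those runs the strongest was a median of 2.24 times the weakest, against 1.36 times in the other 138 runs (both on the mean of the replicates, which draws this ratio toward 1 where the replicates differ in their order). The strongest region was also the widest in 263 runs (53.1%).

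Among runs at genes of fatty acid and triacylglycerol metabolism (FAT genes in the study), the highest mean strength was at a glucose-6-phosphate dehydrogenase gene, G6PD2 (Glyma.02G096800), whose enzyme starts the oxidative pentose phosphate pathway and yields NADPH. Its run, chr2:8704484-8711951, held 4 regions. Fold enrichment in region 2, which holds the listed site, was 31.3 in replicate 1 and 56.1 in replicate 2 (43.7 ± 17.5, SD, n = 2). Regions 1 and 3, separated from it by 187 bp and 685 bp, had 18.04 ± 3.41 and 22.3 ± 3.61, and region 4, 2936 bp further on, had 6.52 ± 1.19. This is 1 of the 2 runs with 3 strong regions, and the replicate spread of region 2 was wide.

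A similar descent was seen at PDH-E1 BETA (Glyma.05G141000), a subunit of plastid pyruvate dehydrogenase, which makes acetyl-CoA for fatty acid synthesis. In this run of 3 regions, chr5:33441117-33447119, the first region, with the listed site, had 29.7 and 42.0 in the replicates (35.8 ± 8.63). The second region, 1141 bp away, had 25.4 and 22.9 (24.2 ± 1.78). The third, 2694 bp further, had 2.71 and 4.37 (3.54 ± 1.17), so that both strong regions lay well above the third in each replicate.

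At a malate dehydrogenase gene (Glyma.17G100600) a single region dominated. The run chr17:7914518-7924807 had 5 regions, and region 4, with the listed site, had 27.2 and 48.3 in the replicates (37.7 ± 14.9). The other 4 regions were between 3.00 and 4.30 on the mean, and none exceeded 4.70 in either replicate. Malate dehydrogenase interconverts malate and oxaloacetate.

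The glycolytic gene GAPC1 (Glyma.18G009700), for cytosolic glyceraldehyde-3-phosphate dehydrogenase, had listed sites in the last 2 of 5 regions of the run chr18:684923-695809. These had 8.89 ± 2.86 and 6.67 ± 0.943, and the third region, 3639 bp before them, had 8.18 ± 0.121. The first 2 regions were lower, with 4.14 ± 1.08 and 3.81 ± 0.0189, and none of the 5 was strong. A gene for ribose 5-phosphate isomerase (Glyma.19G243800), an enzyme of the pentose phosphate pathway, lay in the run chr19:49118764-49126318, whose 3 regions were uniformly weak at 3.97 ± 0.832, 3.71 ± 0.345 and 4.65 ± 0.309.

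No other gene with a listed FAT site lay in a run. The 5 genes were among 106 with such a site in a shared region, of 826 FAT genes in the study. Sites that the study lists only for bound genes were not counted here. Among genes with those sites in runs were plastidial pyruvate kinase 3 (Glyma.01G200200, 3.46 ± 0.906) and phosphoglucose isomerase 1 (Glyma.06G094300, 8.88 ± 0.0687). The 6 regions of the 5 genes were 5.41% of the 111 FAT regions. Of all shared regions 10.9% lay in runs, and of the 3285 shared regions with any listed site 290 did. By pathway, the fatty acid synthesis list gave 1 of 41 genes, gluconeogenesis 2 of 11, the pentose phosphate pathway 1 of 3 and the Rubisco shunt 1 of 14, while none of the 3 triacylglycerol biosynthesis genes was in a run. The study chose its FAT sites on these same samples.

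Of the seed maturation and storage protein loci looked up, Gy1 (Glyma.03G163500), which encodes a glycinin subunit of the 11S storage globulin, was in a run. Its run chr3:37814891-37829509 held 5 regions, and sites listed for Gy1 lay in regions 2 and 3. Region 2 had 16.3 and 18.5 in the replicates (17.4 ± 1.60) and region 3, 4804 bp on, had 13.6 and 13.7 (13.7 ± 0.0342). The other 3 regions were lower, at 4.75 ± 0.257, 5.89 ± 0.0614 and 6.83 ± 0.412, and the replicates were close in all 5. Sites of the LEAFY COTYLEDON1 gene GmLEC1-1 and of a beta-conglycinin gene lay in pairs, and those of GmLEC1-2 and Gy5 were solitary, so none of these was part of a run.

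**Figure D4:**
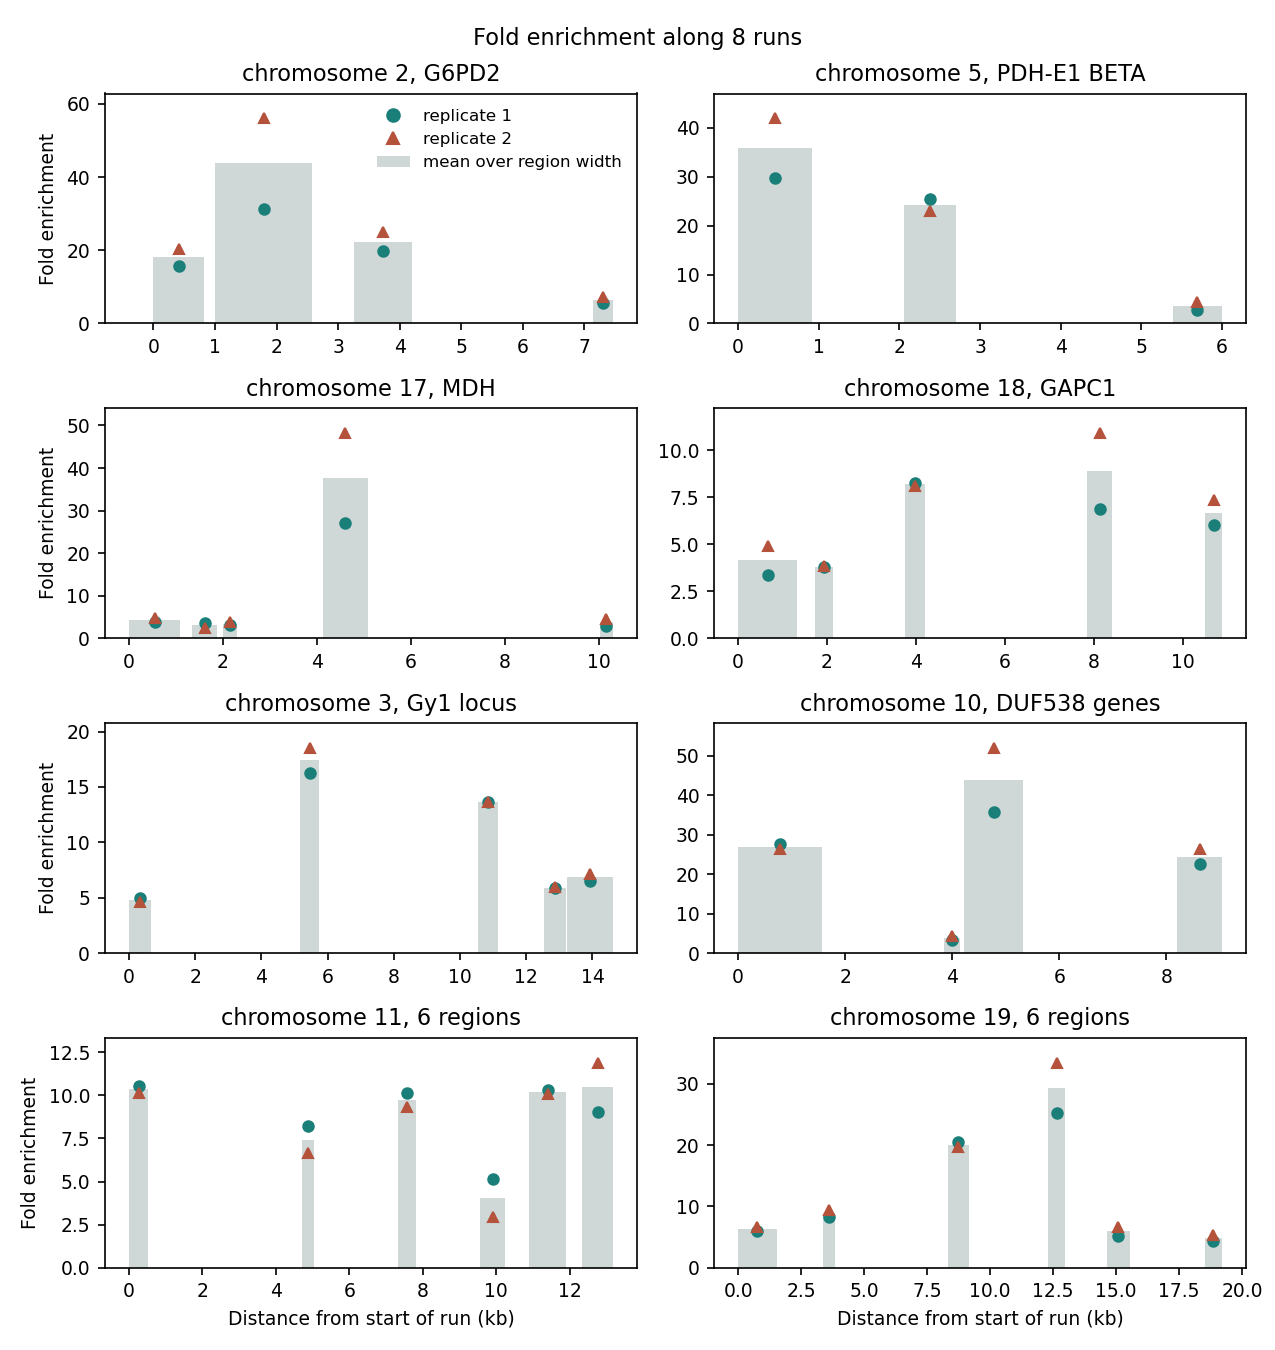
Fold enrichment of every region along 8 runs, against distance from the start of the run (kb). Circles and triangles are replicates 1 and 2, and each grey bar spans the width of a region and reaches the mean of both; scales differ between panels. In the MDH run region 4 reaches 37.7 while the others stay between 3.00 and 4.30, and in the chromosome 11 run 4 of 6 regions lie between 9.75 and 10.5.

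The strongest single region of any run was at Glyma.13G246500, a gene of unknown function. It was the last of 3 regions in chr13:35517634-35524705, with 44.0 and 69.7 in the replicates (56.9 ± 18.2), from 391 and 346 reads. Its neighbours had 3.51 ± 0.268 and 3.30 ± 0.777, the nearer of them 1166 bp away. At a ZIP metal ion transporter gene (Glyma.12G056900), of a family that carries zinc and iron into the cytosol, the last of 3 regions in chr12:4122790-4128314 had 40.9 and 69.8 (55.3 ± 20.4), and the others had 5.25 ± 0.0999 and 7.23 ± 1.37. In both runs the last region stood far above its neighbours in each replicate, and its value was higher in replicate 2.

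Other runs with a region this strong repeated the layout. On chromosome 1 (chr1:32296073-32300087) the middle region had 51.6 ± 11.995 between regions of 4.78 ± 0.334 and 3.97 ± 0.324, and the listed site of a RING zinc finger gene (Glyma.01G097900) was in the weak last region, not in the strong one. On chromosome 20 a first region of 50.9 ± 20.02 in chr20:40813893-40822964 was followed by 5.83 ± 1.59, 5.46 ± 0.597 and 4.53 ± 2.75. In another run there, chr20:37104838-37108618, the middle region of 49.0 ± 27.4 had the widest replicate spread, 29.6 against 68.4, and its neighbours had 4.57 ± 0.256 and 5.81 ± 0.821. No gene was named for either run on chromosome 20, and the shortened site tables gave no named gene in any run there.

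Genes with a named function headed several further strong runs. A glutamine synthetase gene (Glyma.09G173200), whose product assimilates ammonium, had 43.8 ± 0.719 in the last region of chr9:39765397-39772343, after 5.43 ± 0.434 and 7.64 ± 2.59. A senescence- and dehydration-associated gene (Glyma.01G008100) had listed sites in the first and last of 3 regions in chr1:786463-791138, with 36.5 ± 5.83 and 12.5 ± 1.06, and the region between them had 5.08 ± 0.114. In that middle region the summits of the 2 replicates lay apart, at 788543 and 789428, so its 2 values come from different places. A Remorin gene (Glyma.09G261700), of a family of plasma membrane proteins, likewise had sites in the first and last regions of chr9:47961127-47966149, with 10.5 ± 0.736 and 46.3 ± 1.29, around a region of 2.96 ± 0.627. In both latter runs the weak middle region lay within 800 bp of each neighbour, so low and high regions alternated over a short distance.

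The run with the highest mean strength of all was chr10:1523321-1532360. Its first region, at a gene of the invertase and pectin methylesterase inhibitor family (Glyma.10G017300), had 27.0 ± 0.976. Regions 3 and 4, at 2 neighbouring DUF538 genes (Glyma.10G017400 and Glyma.10G017500), had 43.8 ± 11.6 and 24.4 ± 2.75. Region 2, only 74 bp before region 3, had 3.85 ± 0.671, and the other 3 were all strong.

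Among the 8 runs of 6 regions, of which the 5 with the highest mean strength are described, the highest mean strength was in chr19:43535037-43554246, which was also the longest by span at 19210 bp. Fold enrichment along it was 6.28 ± 0.489, 8.89 ± 0.786, 20.1 ± 0.539, 29.4 ± 5.79, 5.94 ± 1.09 and 4.86 ± 0.744, so it peaked at the 2 inner regions. Next was chr11:7543166-7556336, with 10.3 ± 0.267, 7.42 ± 1.11, 9.75 ± 0.583, 4.05 ± 1.56, 10.2 ± 0.157 and 10.5 ± 2.03, and its last region held a site of serine carboxypeptidase-like 34 (Glyma.11G099600). There 4 regions were nearly equal and none was strong. A run on chromosome 17 (chr17:39818540-39828779) had 2 adjacent regions of 15.1 ± 0.0657 and 13.4 ± 1.08 among 4 between 3.15 and 8.32. The remaining 2 of these 5, on chromosomes 10 and 6, had regions between 3.23 and 10.2 and between 3.27 and 7.98. In the other 3 of the 8, on chromosomes 7, 10 and 13, the strongest regions had 6.37, 5.78 and 6.65.

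Names could be given for 290 of the 1650 run regions, in 194 runs and for 255 genes, since the study's site tables used here were in part shortened. Sites of em-stage bound genes were at hand for chromosome 1 only, which held 22 of the 495 runs. Genes there were thus named from more lists than genes elsewhere, which favours chromosome 1 in the gene counts and examples. The direct target and cot-stage lists also stopped before the last chromosomes. The lack of a name outside chromosome 1 is therefore no trait of a run. The named regions had a median fold enrichment of 7.92, against 4.44 for the 1360 others, and 44 of the 67 strong regions were named, so that the gene counts lean toward stronger regions.

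Several genes had listed sites in more than a single region of a run, which need not make up the whole run. In 48 cases a gene had listed sites in at least 2 regions of a run, and in 10 of them in 3 regions. The stretch from the first to the last such region was a median of 4379 bp (1479 to 7908 bp), and the strongest region was a median of 1.48 times the weakest (1.01 to 9.64). Over all 1155 successive pairs of regions in runs, the stronger was a median of 1.41 times the weaker. The 2 ratios are unlike measures. The first takes up to 3 regions, which need not be successive, and only regions with listed sites, which lean toward the stronger ones.

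Genes with 3 sites illustrate the range. The monosaccharide transporter gene STP1 (Glyma.08G059700) had 4.14 ± 0.122, 9.63 ± 1.61 and 8.78 ± 0.368 in chr8:4593257-4596371. A myosin 2 gene (Glyma.13G281900), for an actin-based motor, had 11.7 ± 2.35, 3.18 ± 0.514 and 15.9 ± 3.61 in chr13:38326114-38333433, low in the middle in both replicates. A gene for a DnaJ-domain chaperone (Glyma.01G172200) had 4.79 ± 1.19, 4.00 ± 0.225 and 12.3 ± 1.53 in chr1:50941413-50945880. In these 3 genes the last region by position was the strongest or close to it.

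A protein phosphatase 2C gene (Glyma.01G191300), of a family that removes phosphate from proteins, declined instead, with 7.76 ± 0.593, 5.11 ± 0.384 and 3.97 ± 0.450 in the last 3 regions of chr1:52586784-52595348. A DUF1005 gene (Glyma.01G005800) had 4.61 ± 0.894, 6.58 ± 3.02 and 9.11 ± 1.64 in the last 3 regions of chr1:562803-571918. The largest contrast among the 10 was at Glyma.09G118900, for which no description was at hand, with 3.61 ± 0.0560, 4.47 ± 1.81 and 26.1 ± 4.65 in chr9:28411000-28415677. The other 4, on chromosomes 6, 7 and 13, had regions between 3.77 and 7.98 and none strong.

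Some runs held listed sites of neighbouring genes of like description, which were picked out after their values were seen. Of 22 runs with at least 2 genes described other than as unknown proteins, 6 held genes that share a description. No such count was made for pairs or solitary regions, so this share cannot be set against them. On chromosome 2, 3 genes of the alpha/beta-hydrolase superfamily (Glyma.02G133800, Glyma.02G133900 and Glyma.02G134000) each had a site in a region of their own, with 9.45 ± 1.46, 13.9 ± 3.58 and 42.4 ± 6.33. On chromosome 14, 3 genes described as ethylene-forming enzyme, which makes the hormone ethylene from its precursor, had sites in regions of 7.05 ± 1.83, 8.35 ± 0.312 and 13.97 ± 1.75, and the last of these was listed for 2 of the genes. On chromosome 4, 4 genes of the cytochrome P450 family 82, subfamily C, shared 2 regions, with 19.4 ± 1.80 and 8.34 ± 0.834. The other 3 runs held the DUF538 genes above and pairs of GDSL-like lipase and NB-ARC disease resistance genes, each pair at a single region.

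Described genes were counted by words in their descriptions, with 165 described genes in runs and 2110 at all shared regions. Zinc finger genes were 8 of 165 (4.85%) in runs and 43 of 2110 (2.04%) overall. Their strongest regions were at zinc finger protein 1 (Glyma.10G170800) with 26.6 ± 1.32 and a C2H2-like gene (Glyma.04G033300) with 19.1 ± 5.94. Transporters were 5 (3.03%) against 45 (2.13%), with the tonoplast dicarboxylate transporter gene (Glyma.07G265900), which moves malate into the vacuole, at 44.8 ± 9.09 in a region also listed for an F-box gene. Kinase genes were 9 (5.45%) against 142 (6.73%), led by a MAPK/ERK kinase kinase 1 gene (Glyma.15G048500) at 27.8 ± 4.02.

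The remaining lists were small, and 7.82% of all described genes at shared regions were in runs. There were 2 bZIP genes of 8 (1.21% of described genes in runs against 0.379% overall), at 7.12 ± 1.52 (Glyma.10G223800) and 7.91 ± 1.62 (Glyma.12G036400). There was 1 auxin gene of 14, auxin response factor 19 (Glyma.01G002100), with 3.35 ± 0.758 and 5.30 ± 0.805 in 2 regions of its run, and 1 ribosomal gene of 13, ribosomal protein L34 (Glyma.15G082000), with 24.3 ± 3.75. None of 10 homeobox, 9 MYB or 7 octicosapeptide genes was in a run, and no gene at a shared region was described by photosystem or chlorophyll. No list was tested.

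Runs were found on every chromosome, mostly toward the ends. Chromosome 13 held the most, 38 runs with 128 regions, and chromosome 12 the fewest, 14 runs with 43. The share of shared regions in runs was highest on chromosome 20 (15.3%) and chromosome 11 (13.2%) and lowest on chromosome 12 (7.11%) and chromosome 5 (7.30%). When each chromosome was divided into 5 equal segments from its start to its last peak, the outer segments held 1266 run regions (76.7%), compared with 69.8% of all shared regions, and the middle segment held 79 (4.79%), compared with 5.54%. The share of shared regions that lay in runs was 12.3%, 7.03%, 9.44%, 9.55% and 11.8% from the first to the last segment. Median fold enrichment of run regions was below that of solitary regions in each segment, and on every chromosome except chromosome 6, where it was 4.97 against 4.93.

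**Figure D5:**
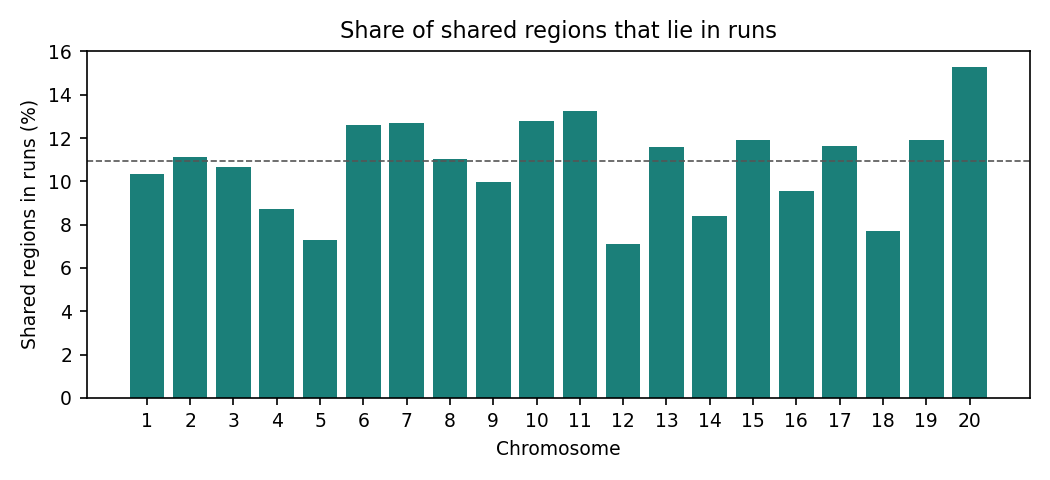
Share of shared regions that lie in runs (%), by chromosome; the dashed line marks the 10.9% over all chromosomes. Chromosome 20 is highest at 15.3% and chromosome 12 lowest at 7.11%.

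At the limits of the rule, the widest gap inside a run was 4990 bp, on chromosome 12, between regions of 9.82 and 3.58, and the next was 4984 bp. The narrowest gap that separated regions was 5003 bp, between regions of 39.1 and 5.77 that each belonged to a pair. The widest region in a run was 1996 bp (chr4:51237922-51239917), with 29.6 and 44.1 in the replicates. The narrowest region that kept a run out was 2008 bp (chr5:41748581-41750588), with 3.85 and 8.31. Values on either side of both limits were within the range seen inside runs.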

How the data were processed

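The 2 deposited ChIP peak lists (narrowPeak) were used. Input samples entered only where the authors called peaks against them. The submitters' processing notes name Bowtie 0.12.7 and MACS2, without a version for the latter, whereas the study's methods name MACS3. Peak names carry a q threshold of 0.01. Build Wm82.a2.v1 was taken from the study's gene tables, and the sources used here do not state which build the reads were aligned to. The deposited fold enrichment is a ratio made by the authors, ChIP reads over local background at each summit, with 1 added to both. The deposited −log10 p and −log10 q are the authors' per-summit values, and the deposited score (10 times −log10 q) was not used.

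Reads at summits and background were solved from fold enrichment and −log10 p, for 100% of peaks within 0.001. The lowest background was 7.17 reads in replicate 1 and 3.80 in replicate 2. Library totals were not used here. For each region and replicate, strength was the highest fold enrichment among its peaks. With 2 samples of 1 group, medians, counts and SD (n = 2) were used, without tests. Members and gene lists were chosen with earlier results of these data known. Genes were named by site positions in the study's tables (direct target, FAT, em- and cot-stage bound genes, the em-stage ones on chromosome 1 only). Some of these tables were shortened, and no value was taken from them. Genes in the text were those of FAT sites, of the 5 runs with most regions (ties by mean strength), of the 10 runs highest in mean strength, of the 5 runs with the strongest regions, with at least 3 sites in a run, of maturation loci and at the limits of the rule. Word list members and genes of like description were named after their values were seen. Alternatives were a −log10 q of at least 10, 50% reciprocal overlap, summits within 100 bp, gaps under 2500 or 10000 bp, no width limit, each replicate alone and −log10 q as strength. Joining regions under 500 bp apart was added after seeing the data. Python 3.11.15, pandas 2.3.3, numpy 2.4.6, scipy 1.17.1 and matplotlib 3.10.9 were used, and the steps were tested on simulated data.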

Additional observations from a re-analysis of the deposited data

How the results depend on the processing

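The number of runs, 495, moved with nearly every choice. It was 75 with a −log10 q of at least 10, 327 with 50% reciprocal overlap, 228 with summits within 100 bp, 280 and 968 with gaps under 2500 and 10000 bp, 579 with no width limit, and from 1263 to 1504 when the peaks of a single replicate were used. Joining regions under 500 bp apart first, an alternative chosen after seeing the data, left 253 runs. The median fold enrichment of run regions, 4.66, was 7.05 with a −log10 q of at least 10, 5.15 with summits within 100 bp, and from 3.76 to 4.47 with a single replicate. Relative to solitary regions it was 0.905 and stayed below 1 under all 10 alternatives. It was 0.970 with a −log10 q of at least 10, 0.919 with 50% reciprocal overlap, 0.947 with summits within 100 bp, 0.934 with gaps under 10000 bp, 0.930 with no width limit, 0.915 with close regions joined, 0.805 on −log10 q as strength, and from 0.919 to 0.927 with a single replicate. The median ratio of strongest to weakest region, 1.92, was 2.10 with 50% reciprocal overlap, 2.16 with summits within 100 bp, 2.05 with gaps under 10000 bp, 2.07 with no width limit and 3.64 on −log10 q. In the 1263 and 1504 runs built anew from the peaks of a single replicate it was 1.91 and 1.92. The causes were not tested. No paired analysis was possible because no result came from a test and the input samples carried no values of their own here. Precision is limited by 2 replicates and by a median of 26 to 37 reads at a summit.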

Other observations

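The 84 runs set aside for a region of 2000 bp or wider held stronger regions, but the wide regions are counted among them. Among solitary regions the median fold enrichment rose with width, from 4.25 under 400 bp to 7.37 from 1200 to 2000 bp. No value was taken without the wide regions, so the contrast cannot be told apart from the width rule. The 281 regions of the 84 runs had a median fold enrichment of 5.98, with 5.65 in replicate 1 and 6.40 in replicate 2. Of these, 34 (12.1%) were strong in both replicates, against 4.06% of the regions in the runs described above. More than 1 peak of a replicate had been merged into 19.2% of these regions, against 10.2% of run regions and 8.23% of solitary regions.

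Runs themselves were mostly far apart. The nearest other run on the same chromosome was a median of 260.1 kb away (shortest distance 5155 bp), and 57 runs (11.5%) had another within 50 kb.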
